A study of Mus musculus with 8 samples.

Results

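The inflammatory CC chemokines are small secreted proteins that draw monocytes, T cells and eosinophils into tissue. The genes described here are Ccl2, Ccl3, Ccl4, Ccl5, Ccl6, Ccl7, Ccl8, Ccl9, Ccl12 and Ccl24. They were chosen by name as members of this family, each read through the probe set annotated to that 1 gene symbol. All 10 had such a probe set, 1 each, among 19938 genes measured. Livers of 4 transgenic mice carrying a constitutively active IKK2 under the LAP promoter were compared with livers of 4 wild type control mice. All mice were 4 weeks old and of a mixed C57BL/6 and NMRI stock, which had been crossed back to C57BL/6 at least 4 times. Each liver had its own Affymetrix array, and each value was taken as a log2 expression value, so a difference of 1 is a 2-fold difference.

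Chemokines bind receptors on leukocytes and guide them along a gradient towards the cells that release them. In mice, Ccr2 on monocytes answers mainly to Ccl2, Ccl7 and Ccl12. Ccr1 on macrophages and T cells answers to Ccl3 and Ccl5. Ccr3 on eosinophils answers to Ccl24. IKK2, the product of Ikbkb, releases the transcription factor NF-kB, which is known to switch on several of these ligands. The LAP promoter is active in hepatocytes, whereas the arrays read RNA of the whole liver. In such bulk tissue, a change in the number of cells of a type and a change in RNA per cell cannot be told apart.

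The gene of the transgenic kinase was higher in the transgenic livers, with a log2 fold change of 1.00 for Ikbkb (SE 0.18, limma adjusted p = 0.0185). That call was lost without transgenic replicate 1 or any control array (adjusted p up to 0.0691). Of 10 hepatocyte markers, such as Ttr for transthyretin (log2 fold change -0.29, limma adjusted p = 0.138, and -0.18 without transgenic replicate 2), 0 were called, and their mean lay between 12.5 and 12.7 in transgenic livers and between 12.6 and 12.7 in control livers. Transgenic replicate 2 stood apart. It was the highest of the transgenic arrays for 84.9% of the 932 genes called higher in the whole comparison, and for 8 of the 10 chemokines. Where a chemokine's call, direction or size changed by over 1.5 times without it, both values are given.

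Of the 10 chemokines, 4 were called higher in transgenic livers and 0 lower, where limma calls 4.67% of all genes higher, 1.67% lower and 6.34% in either direction (adjusted p under 0.05 over all genes). The 4 were Ccl2, Ccl5, Ccl6 and Ccl9. The median log2 fold change over the 10 was 0.75, and over all genes it was -0.07. Every transgenic array read above every control array for 5 of the 10, the 4 called genes and Ccl3, which is the case for 11.2% of all genes, and the groups of 22.4% of genes did not overlap in one direction or the other. The same 4 were called without transgenic replicate 2. Among all genes, 73.7% of calls were in the higher direction, a share of 62.6% after quantile normalization and of 86.4% with each array centred on its median.

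**Figure D1:**
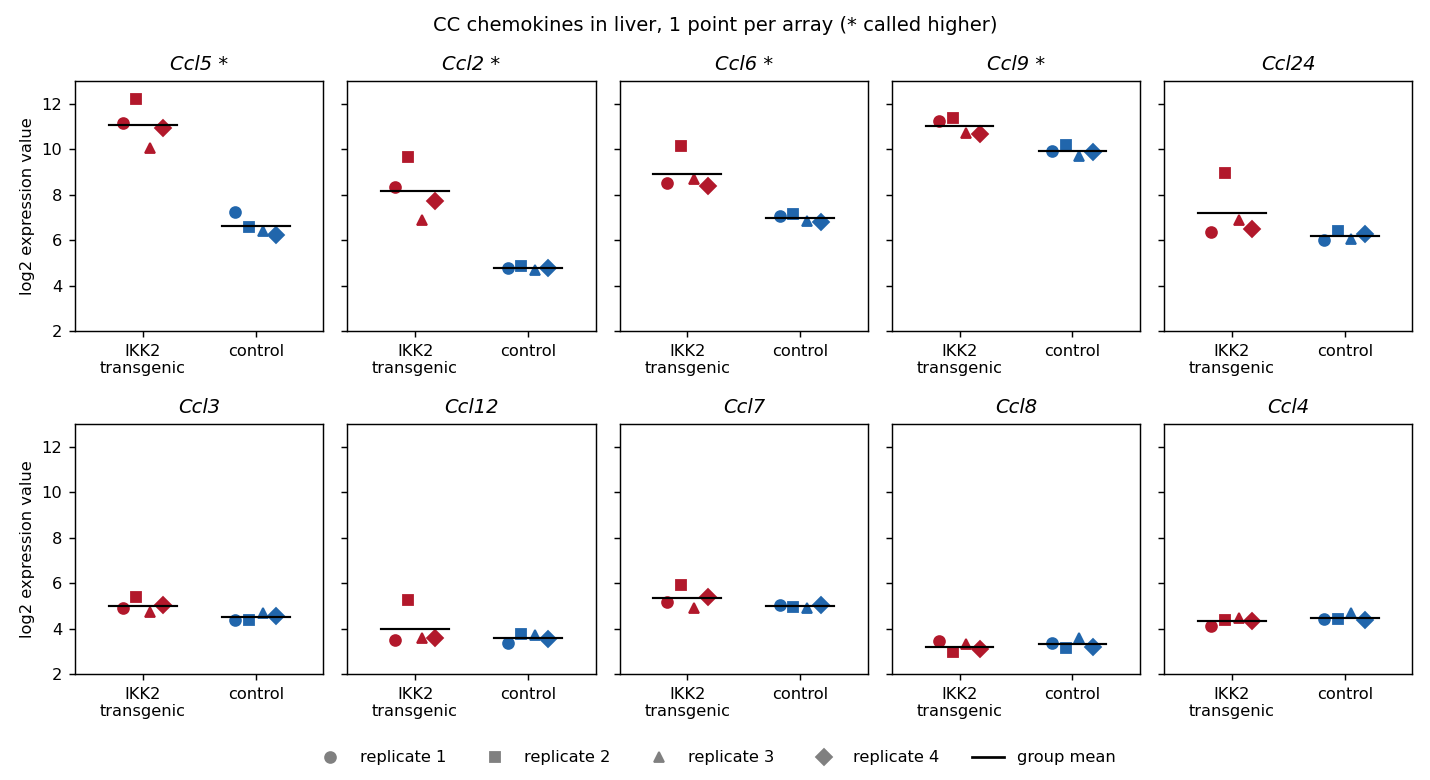
Log2 expression value (vertical axis) of each CC chemokine in the IKK2 transgenic and control livers, 1 point per array with the replicate number as the symbol and a line at the group mean. The groups are apart for Ccl5, Ccl2, Ccl6, Ccl9 and, narrowly, Ccl3, and the square of transgenic replicate 2 stands above the other transgenic arrays for Ccl24 and Ccl12.

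Ccl2, the monocyte attractant also called MCP-1, was the strongest riser among the Ccr2 ligands. It read 8.33, 9.64, 6.88 and 7.73 in transgenic replicates 1 to 4, against 4.80, 4.86, 4.71 and 4.80 in control replicates 1 to 4. The transgenic livers spread over 2.76 log2 units and the controls over 0.15, and the lowest transgenic reading still lay far above the highest control. The rise of Ccl2 was 10.2-fold, or 3.36 on the log2 scale (SE 0.46, 95% confidence interval 2.33 to 4.39, limma adjusted p = 0.00694). Without transgenic replicate 2 the log2 fold change was 2.86 (adjusted p = 0.000244). All 4 control readings lay under the medians of their arrays, and no background was measured against which to read them.

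The other ligands of Ccr2 did not pass. Ccl7, or MCP-3, read 5.17, 5.93, 4.92 and 5.39 in transgenic livers and 5.07, 4.98, 4.94 and 5.06 in control livers. Transgenic replicate 3 lay below every control and the groups overlapped (log2 fold change 0.34, 95% confidence interval -0.07 to 0.75, limma adjusted p = 0.214). Ccl12, the mouse monocyte attractant MCP-5, read 3.52, 5.26, 3.62 and 3.59 in transgenic livers, against 3.39, 3.80, 3.72 and 3.56 in control livers. Only transgenic replicate 2 was high, and the other transgenic readings lay within the control range. Its log2 fold change of 0.38 (limma adjusted p = 0.431) became -0.037 without that array (adjusted p = 0.846). That of Ccl7 became 0.15 (adjusted p = 0.444).

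Ccl8, or MCP-2, which in mice acts through Ccr8, read 3.47, 2.98, 3.34 and 3.10 in transgenic livers and 3.40, 3.17, 3.61 and 3.21 in control livers. Transgenic replicate 2 was here the lowest of all arrays. The log2 fold change was -0.12, with a 95% confidence interval of -0.43 to 0.18 (limma adjusted p = 0.529), and -0.040 without transgenic replicate 2 (adjusted p = 0.862). All 8 readings lay under the array medians, and since no background was measured, a level this low cannot be told from none.

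Ccl5, also called RANTES, attracts T cells and monocytes, and its log2 fold change was the largest of the 10. It read 11.17, 12.22, 10.04 and 10.91 in transgenic livers, against 7.24, 6.57, 6.41 and 6.24 in control livers. Control replicate 1 was the highest control, and the gap from it to the lowest transgenic array was still wide. The rise of Ccl5 was 22.2-fold (95% confidence interval 12.0 to 40.9), or 4.47 on the log2 scale (SE 0.40, limma adjusted p = 0.000697). Unlike Ccl2, it read above the array median in every control liver. Without transgenic replicate 2 its log2 fold change was 4.09 (adjusted p = 4.77e-05).

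Ccl3 and Ccl4, the macrophage inflammatory proteins MIP-1alpha and MIP-1beta, attract macrophages and T cells. Ccl3 read 4.92, 5.39, 4.73 and 5.04 in transgenic livers and 4.39, 4.40, 4.70 and 4.55 in control livers. The groups did not overlap, but transgenic replicate 3 and control replicate 3 nearly met. The log2 fold change was 0.51 (95% confidence interval 0.20 to 0.82) and missed the threshold at a limma adjusted p = 0.0579. It passed without transgenic replicate 3 (adjusted p = 0.0346). Ccl4 read 4.13, 4.41, 4.47 and 4.37 in transgenic livers, against 4.44, 4.42, 4.68 and 4.41 in control livers. Its groups overlapped, with a log2 fold change of -0.14 (95% confidence interval -0.37 to 0.09, limma adjusted p = 0.329), and all 8 readings were under the array medians.

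Ccl6 and Ccl9 are rodent chemokines made by macrophages, which act on Ccr1. Ccl6 read 8.52, 10.16, 8.67 and 8.38 in transgenic livers, against 7.09, 7.17, 6.85 and 6.79 in control livers. Apart from transgenic replicate 2, the transgenic arrays lay within 0.3 of each other. Ccl6 rose 3.89-fold (log2 fold change 1.96, SE 0.34, limma adjusted p = 0.0162), and 2.93-fold without transgenic replicate 2 (adjusted p = 9.03e-05). Its call was lost without control replicates 1, 2, 3 or 4 (adjusted p = 0.0506, 0.0584, 0.0608 and 0.0565), with a log2 fold change of at least 1.90 each time.

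Ccl9, also called MIP-1gamma, had the smallest rise of the 4 called members. It read 11.23, 11.39, 10.73 and 10.68 in transgenic livers, against 9.93, 10.18, 9.69 and 9.89 in control livers. The groups were apart, and transgenic replicate 2 was close to transgenic replicate 1. Ccl9 rose 2.12-fold (log2 fold change 1.09, 95% confidence interval 0.70 to 1.47, limma adjusted p = 0.0124). The call was narrowly lost without transgenic replicate 1 (adjusted p = 0.0520).

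Ccl24, also called eotaxin-2, attracts eosinophils. It read 6.38, 8.98, 6.88 and 6.50 in transgenic livers, against 6.00, 6.40, 6.07 and 6.27 in control livers. Transgenic replicate 2 was far above every other liver, and transgenic replicate 1 lay within the control range. The log2 fold change of 1.00 (95% confidence interval -0.09 to 2.08) did not pass (limma adjusted p = 0.177), and it was 0.40 without transgenic replicate 2 (adjusted p = 0.128).

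In 4 of 5 pairs of chemokines that are closely related or share a receptor, the pair changed unequally. One chemokine's log2 value was subtracted from the other's within each array, which removes any shift of a whole array. The pairs were chosen with earlier results of these data known, so their tests are not independent evidence. Ccl2 minus Ccl12 was 4.15 ± 0.65 in transgenic livers and 1.18 ± 0.19 in control livers (SD, n = 4 each), so that Ccl2 gained 2.97 log2 units on Ccl12. Against Ccl7 it gained 3.02. Ccl3 gained 0.65 on Ccl4, the difference being 0.67 ± 0.31 in transgenic livers and 0.02 ± 0.08 in control livers. Ccl6 gained 0.87 on Ccl9.

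In each of these 4 pairs the groups did not overlap. Each reached p = 0.0286 in a two-sided exact permutation test, the smallest p that 4 arrays against 4 can give, and 0.0357 after Benjamini-Hochberg adjustment over the 5 pairs. The difference between Ccl6 and Ccl9 did not pass after quantile normalization (exact permutation test, adjusted p = 0.107). Ccl8 minus Ccl12 was -0.77 ± 1.02 in transgenic livers and -0.27 ± 0.28 in control livers. It did not pass (exact permutation test, adjusted p = 0.514), and the difference of -0.50 became -0.0029 without transgenic replicate 2. Of the 8 readings of each, 8 of Ccl4, 8 of Ccl8, 7 of Ccl12, 5 of Ccl3, 4 of Ccl2 and 3 of Ccl7 lay under the array medians, and the part of dim signal in these differences was not tested.

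**Figure D2:**
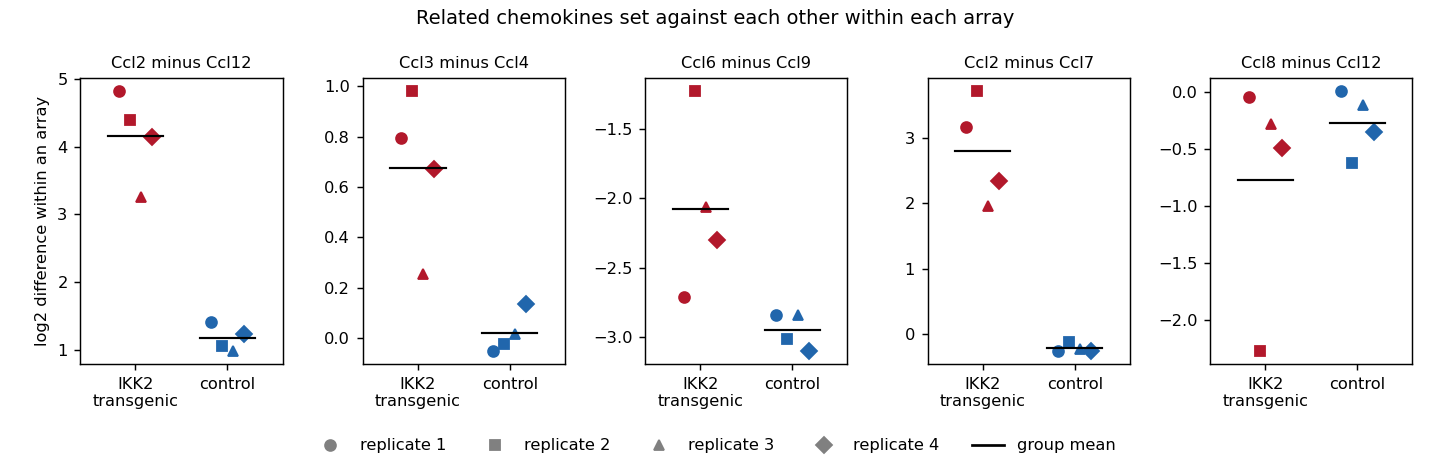
Log2 value of one chemokine minus that of another within the same array (vertical axis), for 5 pairs, in IKK2 transgenic and control livers, with a symbol for each replicate and a line at the group mean. The groups are apart for all but Ccl8 minus Ccl12, where transgenic replicate 2 reads -2.28; each panel has its own vertical scale.

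All members but Ccl24, which is on mouse chromosome 5, lie on chromosome 11, in 2 clusters. In one, the order of measured protein-coding genes is Ccl2, Ccl7, Ccl11, Ccl12, Ccl8 and Ccl1. In the other it is Ccl5, Ccl9, Ccl6, Ccl3 and Ccl4. Within the first cluster Ccl2 was called and the other 5 were not. Its next measured neighbours outside, 1700071K01Rik and Tmem132e, stood at -0.02 and -0.21. In the second cluster the 3 genes at one end were called, with log2 fold changes of 4.47 for Ccl5, 1.09 for Ccl9 and 1.96 for Ccl6, while Ccl3 and Ccl4 at the other end were not.

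Beyond Ccl5, the neighbour Heatr9 stood at -0.17 (limma adjusted p = 0.228). Beyond Ccl4, Wfdc17, a gene of activated macrophages, was called higher by 1.09 (limma adjusted p = 0.0433), and Wfdc18 next to it was not (0.18). These neighbours were looked up after the chemokines' values had been seen. The reference models of Ccl3 and Ccl4 overlap.

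**Figure D3:**
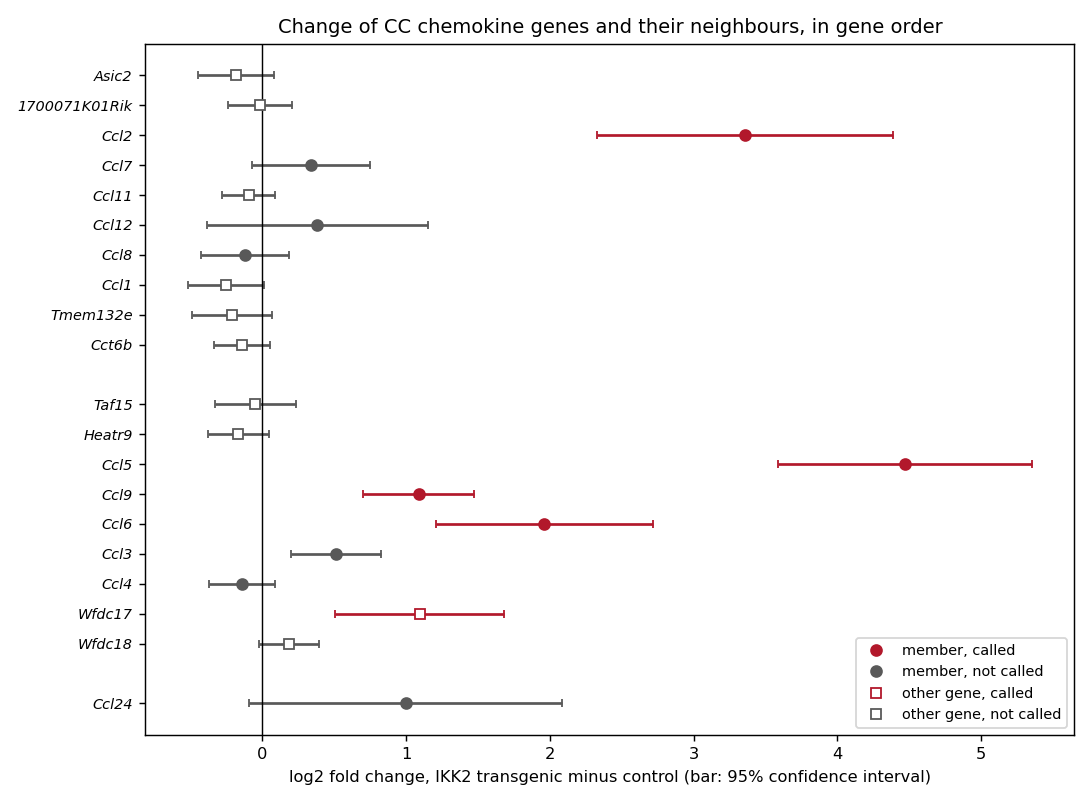
Log2 fold change, IKK2 transgenic minus control (horizontal axis, bars are 95% confidence intervals), of the CC chemokine genes and the nearest measured protein-coding genes, listed downward in the order in which they lie in the Ccl2 cluster, then in the Ccl5 cluster, with Ccl24 last. Ccl2 stands alone in its cluster at 3.36, whereas Ccl5, Ccl9 and Ccl6 are adjacent and all called.

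Promoter sequences from RefSeq (build GRCm38.p6, 250 bases before to 50 after the gene's start) were matched for 5 of the 10 genes, Ccl3, Ccl6, Ccl8, Ccl9 and Ccl12. The 2 called genes among them, Ccl9 and Ccl6, and the pair of neighbours that did not pass, Ccl12 and Ccl8, are shown, since each pair lies side by side in its cluster. Capitals mark a TATA box, searched as TATAAA, or a kB motif, the kind of site NF-kB binds, searched as GGG, any 5 bases and CC, each on both strands.
Ccl9 promoter (chr11:83578587-83578886, minus strand): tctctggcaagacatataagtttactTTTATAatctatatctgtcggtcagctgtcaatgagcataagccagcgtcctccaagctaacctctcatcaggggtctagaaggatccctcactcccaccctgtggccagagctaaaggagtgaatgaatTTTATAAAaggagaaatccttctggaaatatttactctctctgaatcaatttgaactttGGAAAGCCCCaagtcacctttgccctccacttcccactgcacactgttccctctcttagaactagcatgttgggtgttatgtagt
Ccl6 promoter (chr11:83593038-83593337, minus strand): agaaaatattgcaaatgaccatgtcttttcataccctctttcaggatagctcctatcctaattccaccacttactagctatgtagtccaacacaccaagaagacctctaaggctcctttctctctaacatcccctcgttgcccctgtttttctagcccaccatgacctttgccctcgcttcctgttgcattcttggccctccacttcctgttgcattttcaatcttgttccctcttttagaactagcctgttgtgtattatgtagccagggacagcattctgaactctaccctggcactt
Ccl12 promoter (chr11:82101595-82101894, plus strand): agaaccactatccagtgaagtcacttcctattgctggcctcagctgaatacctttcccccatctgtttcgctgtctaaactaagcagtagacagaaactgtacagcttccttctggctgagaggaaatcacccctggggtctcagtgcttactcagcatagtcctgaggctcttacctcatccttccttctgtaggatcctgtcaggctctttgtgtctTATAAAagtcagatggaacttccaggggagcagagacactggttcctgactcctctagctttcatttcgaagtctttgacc
Ccl8 promoter (chr11:82114935-82115234, plus strand): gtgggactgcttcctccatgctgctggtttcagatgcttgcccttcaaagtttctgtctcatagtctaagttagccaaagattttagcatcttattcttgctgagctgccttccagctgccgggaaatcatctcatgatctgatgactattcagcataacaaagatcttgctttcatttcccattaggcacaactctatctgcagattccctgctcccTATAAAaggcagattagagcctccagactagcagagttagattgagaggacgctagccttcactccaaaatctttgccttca

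A TATA box in the usual place just before the start was found in Ccl12, from base -31, and in Ccl8, from base -32. Ccl9 held it farther away, from bases -224 and -94 on the minus strand and -92 on the plus strand of the gene, the last overlapping the one before it. The TATA letters were in 3 of the 5 promoters and in 13.6% of all 32851 promoter windows. The kB letters were in 1 of the 5, Ccl9, and in 50.8% of all windows. That match is on the minus strand of the gene, and reads GGAAAGCCCC from base -35 on its plus strand. The windows of Ccl6 and Ccl3 held neither. A match is only a match of letters, and its absence says nothing of sites outside these windows.

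The receptors for these ligands gave 4 genes higher and 0 lower of 9 measured, where 4.67% of all genes are called higher, with a median log2 fold change of -0.02. Ccr2, the monocyte receptor for Ccl2, read 7.61, 8.70, 6.86 and 7.19 in transgenic livers, against 3.92, 3.98, 3.69 and 3.90 in control livers. It rose by 3.72 on the log2 scale (SE 0.33, limma adjusted p = 0.000697), and the groups were far apart. All 4 control readings of Ccr2 lay under the array medians. Ccrl2, an atypical receptor that binds chemerin and does not signal, rose by 2.08 (limma adjusted p = 0.0162). That call was lost without transgenic replicate 1 or control replicates 1, 2 or 3 (adjusted p = 0.0660, 0.0546, 0.0613 and 0.0608).

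Ccr1, the receptor for Ccl6 and Ccl9, rose by 1.44 (limma adjusted p = 0.0470), and Ccr3, the eosinophil receptor for Ccl24, by 1.28 (limma adjusted p = 0.0403). Both calls were lost without transgenic replicate 1 or any of the control replicates (adjusted p up to 0.126 for Ccr1 and 0.120 for Ccr3). All 4 control readings of each lay under the array medians, as did 3 transgenic readings of Ccr1 and 2 of Ccr3. Transgenic replicates 2, 1, 4 and 3, from highest to lowest, was the order of Ccr2, Ccr1, Ccr3 and Ccrl2, and also that of Ccl2 and Ccl5. None of the other chemokines had it. Ccl3 and Ccl7 had the order 2, 4, 1 and 3, and Ccl24 had 2, 3, 4 and 1. The share of all genes with the same order as these receptors was not counted. The mouse Ccl8 receptor Ccr8 stood at -0.10, and the scavenging receptors Ackr1, Ackr2 and Ackr4 at -0.08, -0.02 and -0.19, none of them called. Every reading of Ccr8, Ackr1 and Ackr4 lay under the array medians.

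Among 8 other CC chemokines, 2 were higher and 0 lower, where 4.67% of all genes are called higher and 1.67% lower. Ccl20, the ligand of Ccr6, read 9.62, 10.62, 7.73 and 9.79 in transgenic livers and 4.43, 4.50, 4.06 and 4.24 in control livers, a rise of 5.13 (limma adjusted p = 0.00103). Ccl17, a ligand of Ccr4 on T cells, read 6.08, 5.60, 5.79 and 5.96 in transgenic livers, against 4.93, 4.92, 5.02 and 4.67 in control livers. It rose by 0.98 (limma adjusted p = 0.00436), and here transgenic replicate 2 was the lowest of its group. Ccl11, the other eotaxin, stood at -0.09 (limma adjusted p = 0.421). Of 10 cytokines known to induce CC chemokines, 1 was higher and 0 lower, too few to set apart from the 4.67% and 1.67% of all genes. That gene, Il1b for an interleukin of activated macrophages, rose by 0.97 (limma adjusted p = 0.00616). Without transgenic replicate 3, 3 of the 10 were called higher and 1 lower. Tnf stood at 0.34 (limma adjusted p = 0.0845), while Il4 and Il13, which induce Ccl24 in macrophages, stood at -0.03 and -0.31 and did not pass. Every reading of Il4, Il13 and Ccl11 lay under the array medians, as did all 4 control readings of Ccl20, Ccl17 and Il1b.

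**Figure D4:**
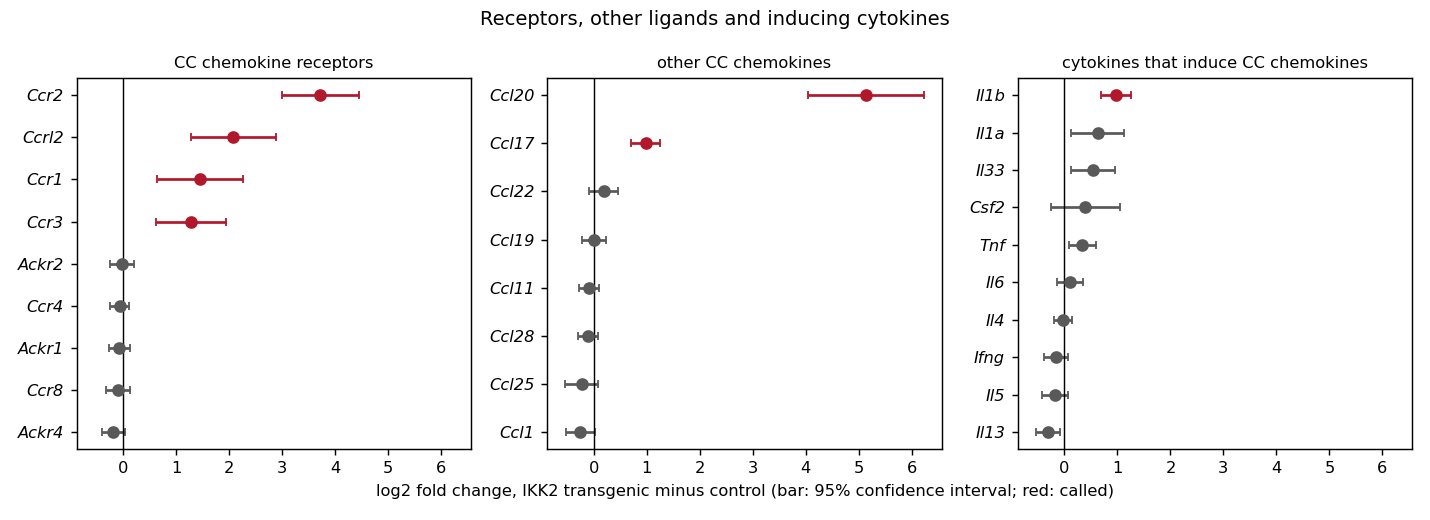
Log2 fold change, IKK2 transgenic minus control (horizontal axis, points with 95% confidence intervals, red where called), of CC chemokine receptors, other CC chemokines and cytokines that induce CC chemokines. Ccr2 at 3.72 and Ccl20 at 5.13 lie far to the right, and most other genes lie near 0.

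Markers of the cells that carry these receptors were read in the same livers. Beside the counts that follow, 4.67% of all genes are called higher and 1.67% lower. Of 7 monocyte markers 5 were higher, led by Ccr2 and the integrin Itgam (2.30, limma adjusted p = 0.0154, but up to 0.0609 without transgenic replicate 1 or control replicates 1, 2 or 3). Ccr2 was also counted among the receptors, so the 2 counts are not separate. All 4 control readings of Itgam lay under the array medians. Without transgenic replicate 2, 6 of the 7 were higher. Their mean lay between 5.31 and 6.98 in transgenic livers and between 3.98 and 4.10 in control livers. Of 11 Kupffer cell and macrophage markers 8 were higher, among them Adgre1, the surface protein F4/80, by 1.74 (limma adjusted p = 0.00697), and the lysosomal Cd68 by 1.71 (limma adjusted p = 0.00646). Without transgenic replicate 2, 10 of the 11 were higher. Their mean lay between 8.78 and 10.2 in transgenic livers and between 7.72 and 8.17 in control livers. Transgenic replicates 2, 3, 1 and 4 was the order of this mean and of Ccl6, whereas Ccl9, Adgre1 and Cd68 had the order 2, 1, 3 and 4. Macrophages are a known source of Ccl6 and Ccl9, and the part of cell number in the rise of the chemokines was not tested.

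T cells, which both follow Ccl5 and make it, had 3 of 9 markers higher, where 4.67% of all genes are called higher. Among them, Cd3g of the T cell receptor complex rose by 1.53 (limma adjusted p = 0.00602). Cd3d and Cd3e of that complex, at 0.43 and 0.24, were not called (limma adjusted p = 0.173 and 0.169). The median log2 fold change of the T cell list was 0.43. Cd8b1 of cytotoxic T cells rose by 0.57 (limma adjusted p = 0.0312, up to 0.100 without transgenic replicate 1 or control replicates 1, 3 or 4). The mean of the list lay between 4.96 and 5.53 in transgenic livers and between 4.65 and 4.73 in control livers. The NK cell list had 1 of 8 higher, too few to set apart from the 4.67% of all genes. That gene, Nkg7 for a granule protein, rose by 1.52 (limma adjusted p = 0.0162, up to 0.0640 without control replicates 2, 3 or 4). Without transgenic replicate 2, 2 of the 8 were higher. The mean of the NK cell list lay between 4.44 and 5.33 in transgenic livers and between 4.09 and 4.23 in control livers. Eosinophil markers were called in 1 of 6, also too few to set apart from the 4.67% of all genes. Their mean lay between 4.30 and 4.45 in transgenic livers and between 4.17 and 4.41 in control livers. Siglecf, a lectin of eosinophils, rose by 1.31 (limma adjusted p = 0.0383, lost without transgenic replicate 1 or any control, up to 0.104). The granule genes Prg2 and Epx stood at -0.08 and -0.15 and were not called. Every reading of these granule genes lay under the array medians, where a level cannot be told from none. Siglecf was highest in transgenic replicate 1, whereas Ccl24 was highest in transgenic replicate 2.

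Dendritic cell markers were higher in 4 of 6, where 4.67% of all genes are called higher. Among them were the lectin Cd209a, by 1.92 (limma adjusted p = 0.000942), and the cytokine receptor Flt3, by 0.80 (limma adjusted p = 0.00771). Zbtb46 and Xcr1 of the same list, at -0.12 and 0.41, were not called (limma adjusted p = 0.385 and 0.160). The list mean was 5.48 to 5.76 in transgenic livers and 4.76 to 5.03 in control livers. Of 6 markers of stellate cells, the collagen-making cells of the liver, 2 were higher, Col1a1 by 0.71 and Dcn by 0.55 (limma adjusted p = 0.0185 and 0.00941). The call of Col1a1 was lost without transgenic replicate 1 or control replicates 2 or 3 (adjusted p up to 0.0710). None of 9 neutrophil, 5 B cell, 6 endothelial and 4 bile duct markers was called, with median log2 fold changes of 0.11, -0.072, 0.17 and -0.074. The smallest p of these lists belonged to Ltf (0.23), Blk (-0.26), Pecam1 (0.33) and Krt19 (-0.25), each value a log2 fold change. Every reading of Ltf, a neutrophil marker, and of Blk, a B cell marker, lay under the array medians, where a level cannot be told from none. The part of these cells in the chemokine values was not tested.

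**Figure D5:**
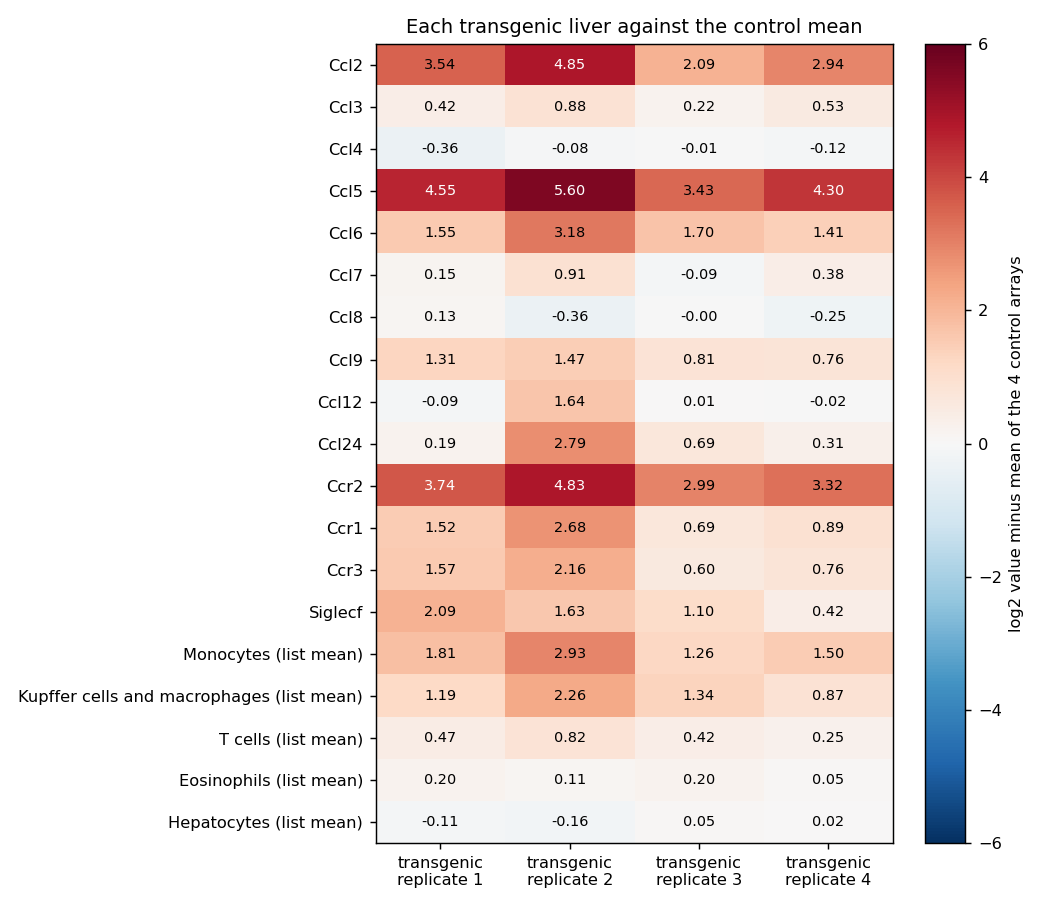
Log2 value of each transgenic liver (columns) minus the mean of the 4 control livers, for the CC chemokines, selected receptors, Siglecf and the means of 5 marker lists (rows), with the difference written in each cell. Transgenic replicate 2 has the highest value in most rows, Ccl24 and Ccl12 depart from the controls mainly there, and the hepatocyte mean stays within 0.2 of the controls.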

How the data were processed

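RNA of 8 livers was read on 8 Affymetrix arrays, 4 per group. The authors deposited a value for every probe set on every array, and its log2 scale was inferred from the range of the values. The submitters' processing notes name Affymetrix Expression Console; its version and normalization settings were not given in the sources used here. Array medians lay between 4.88 and 5.08 and no further normalization was applied. Per the labels the replicates are biological, and having only 8 arrays limits the precision. No background was measured.

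Of 35556 probe sets, 21789 carry 1 gene symbol in the platform annotation; 1621 with several symbols and 12146 without any were left out. Limma 3.58.1 in R 4.3.3 fitted the group to the 21789, with empirical Bayes moderation, two-sided tests and Benjamini-Hochberg adjustment over all of them. A gene was called at an adjusted p under 0.05, and counted through its brightest probe set over the 8 arrays, giving 19938 genes. Fold changes are transgenic minus control. The steps were tested on simulated data. Pairs of chemokines were compared with exact permutation tests over 70 splits. Promoters were searched in Python 3.11.15.

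The members, lists, pairs and the rule for naming genes were chosen with earlier results of these data known. The rule names all members, the called genes (or the one of smallest p) of 3 related lists, up to 2 called genes per marker list, Ikbkb, and the genes most like 2 members. Named outside it, after their values were seen, were receptors, cytokines, T cell, eosinophil and dendritic cell genes and neighbours given for contrast. The labels do not pair the livers by replicate number. Deviations of same-numbered arrays correlated at 0.24, -0.03, 0.26 and -0.13, and those of different-numbered arrays at -0.26 to 0.17. The values 0.24 and 0.26 lie above every different-numbered value, so these correlations do not settle whether the numbers pair the livers.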

Additional observations from a re-analysis of the deposited data

Results flagged for a closer look

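In 4 of 78 groups of 4 arrays examined, over the named genes and the 5 pairs, 1 array lay far from the others by Dixon's criterion. About 1 in 20 groups, here 3.9, is flagged by chance. Ccl12 in transgenic livers read 5.26 in replicate 2 and 3.52 to 3.62 in the others, a gap of 0.943 of the whole range. Ccl6 in transgenic livers read 10.16 in the same replicate and 8.38 to 8.67 in the others (0.837 of the range). Ccl4 in control livers read 4.68 in replicate 3 and 4.41 to 4.44 in the others (0.896). Cd68, a lysosomal protein of macrophages, read 7.22 in the third control liver, where the remaining controls read 7.43 to 7.46 (0.849).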

How the results depend on the processing

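The 10 chemokines were refitted under 8 other settings and with each of the 8 arrays left out. Of 157 refits, 147 kept direction and side of the threshold, 5 lost a call, 4 gained one and 1 turned round (Ccl12, at -0.037 without transgenic replicate 2, and at -0.037 to 0.54 over all arrays left out singly); causes were not tested. Ccl2 and Ccl5 were called in all of theirs, Ccl3 also after quantile normalization, with array weights and with the dimmest 30% left out (adjusted p = 0.0433, 0.0363 and 0.04996), a filter that removes Ccl4, Ccl8 and Ccl12. Leaving out single arrays gave 3 to 5 chemokines higher and 0 lower, 1 to 4 receptors higher, and 1 to 3 inducing cytokines higher with 0 to 1 lower. Receptors called numbered 2 with arrays centred on their medians and 2 with every probe set tested. The gain of Ccl6 on Ccl9 was 0.77 after quantile normalization (adjusted p = 0.107). Over all genes, 932 were higher and 333 lower as deposited, against 1066 and 638 after quantile normalization, 618 and 97 with arrays centred, and 425 and 54 with every probe set tested. Lower genes numbered 501 with array weights and 174 with the replicate block, a pairing the labels do not give; the block changed no other call count by over 1.5 times. Single arrays left out gave 192 to 1636 higher and 3 to 944 lower. For the pairs, only the values were taken with single arrays left out, without a test. Readings under the array medians limit what can be said of Ccl4, Ccl8 and Ccl12.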

Other observations

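Over the 8 arrays, the 5 genes whose log2 values followed Ccl5 most closely were Ctss, Ms4a4a, Lyz2, Clec7a and Itgb2, with Pearson r of 0.997, 0.997, 0.996, 0.994 and 0.993. Ctss is a cathepsin of antigen-presenting cells, Lyz2 the lysozyme of macrophages, Clec7a a receptor for fungal glucans and Itgb2 the beta chain of leukocyte integrins. Their log2 fold changes were 1.99, 4.30, 2.84, 1.96 and 2.07. For Ccl9, the genes were Plp2, Grk3, Pde1a, AW112010 and Fth1 (r from 0.989 to 0.992), with log2 fold changes between 0.41 for Fth1 and 2.12 for AW112010. These correlations are across arrays that share the difference between groups, and are the highest of 19937 genes, so they serve as a description only.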
